A study of Homo sapiens with 48 samples.

Results

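Transcripts of 44 genes that act in G2 and mitosis were followed in 8 human cancer cell lines after carfilzomib, an irreversible proteasome inhibitor, and after its solvent DMSO. The genes were chosen by name from textbook roles (mitotic kinases and cyclins, kinetochore, spindle and cytokinesis proteins, and the transcription factors of the programme), with earlier results of these data known. Each was found as 1 row of the deposited matrix, 44 of 33892 rows, and all passed the filter on low counts in every line. The lines are RKO and DLD-1 (colon cancer), H-23 and H-1299 (lung cancer), PANC-1 and CAPAN-2 (pancreatic cancer), and H-929 and RPMI (multiple myeloma). Every line was treated for 24 h, in biological triplicate according to the labels, which gave 48 libraries in 16 groups of 3. The dose was the IC50 for proteasome activity of each line, so concentrations can differ between lines, and the labels print none. Each tumour type is represented by 2 established cell lines, grown in culture.

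Library totals ran between 9.12 and 64.4 M counts, and the median count of a member in a library was 3218, so counting error was small for most members. It was largest for UBE2C in RPMI, with 11 to 26 counts. CENPA in H-929 (64 to 334 counts) and HMMR in RKO (65 to 208 counts) were also thinly counted. The tumour types named in the labels were checked with marker genes at a mean of at least 1 CPM (counts scaled to a common library total) in DMSO. H-929 and RPMI had 6 of 6 plasma cell markers, where the other lines had at most 4, and of the lists only this one set its tumour type apart. PANC-1 and CAPAN-2 had 4 of 4 markers of pancreatic duct, as did the lung line H-23, and DLD-1 had 3. The colon markers were incomplete, with 3 of 6 in DLD-1 and 1 of 6, CDX2, in RKO, beside 3 in CAPAN-2, 2 in H-23 and 1 in PANC-1. Of 3 lung adenocarcinoma markers H-23 had 2, H-1299 and RKO had 0 and every other line had 1. By their sum in DMSO the myeloma line H-929 was highest, at 37.7 to 40.7 CPM, beside 4.08 to 4.77 CPM in H-23. Of 4 markers of epithelium H-1299 had 2, without EPCAM and CDH1, RKO had 3, without CDH1, and H-929 had 1. Every other line had 4, the myeloma line RPMI among them. The lung marker NKX2-1 was not analysed here. These are bulk libraries, so a lower value can mean fewer cells in G2 or mitosis or less RNA in each such cell, and these cannot be told apart here.

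Dividing cells make the proteins of G2 and mitosis late in the cell cycle. Cyclins of the A and B type activate the kinase CDK1, polo-like and aurora kinases build the spindle and correct chromosome attachment, and the spindle assembly checkpoint holds anaphase until every kinetochore is attached. The anaphase-promoting complex, a ubiquitin ligase, then marks cyclin B and securin for the proteasome. Most of the genes share a late wave of transcription that is driven by MYBL2, the MuvB core and FOXM1 and is held down by the DREAM complex in resting cells. Read counts measure the transcripts only and say nothing of the proteins that proteasome inhibition spares.

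The 44 genes fell almost as a block in RKO, DLD-1, H-23 and PANC-1, fell in majority in both myeloma lines, split in CAPAN-2 and mostly rose in H-1299. A gene is called here at an adjusted p under 0.05 in edgeR's test of the line's own 6 libraries, adjusted over all genes tested, and changes are log2 fold changes of carfilzomib over DMSO. In RKO 44 of 44 members were lower, where 5.28% of all genes tested in that line were lower and 3.62% higher. In DLD-1 42 were lower, against 12.1% of all genes lower and 10.9% higher. In H-23 39 were lower, against 16.2% lower and 17.7% higher. The number of members called higher was 0 in these lines, also at an unadjusted p under 0.05 and with DESeq2. In PANC-1 39 members were lower and 1 was higher, against 18.2% and 20.5% of all genes.

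In the myeloma lines fewer members were called. H-929 had 29 members lower and 1 higher, where 26.2% of all genes were lower and 26.4% higher, and RPMI had 24 lower and 6 higher, against 32.2% and 31.3%. CAPAN-2 had 15 lower and 12 higher, shares close to the 26.7% and 25.7% of all its genes. H-1299 had 7 lower and 23 higher, against 31.3% and 29.8%. The medians of the 44 log2 fold changes ran from -0.77 in RKO, -0.43 in H-929, -0.40 in DLD-1, -0.34 in PANC-1, -0.29 in H-23 and -0.20 in RPMI to -0.06 in CAPAN-2 and 0.15 in H-1299. The median of all genes tested lay between -0.02 and 0.03 in every line. Over the 352 pairs of a gene and a line, 239 were lower, 43 higher and 70 not called.

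**Figure D1:**
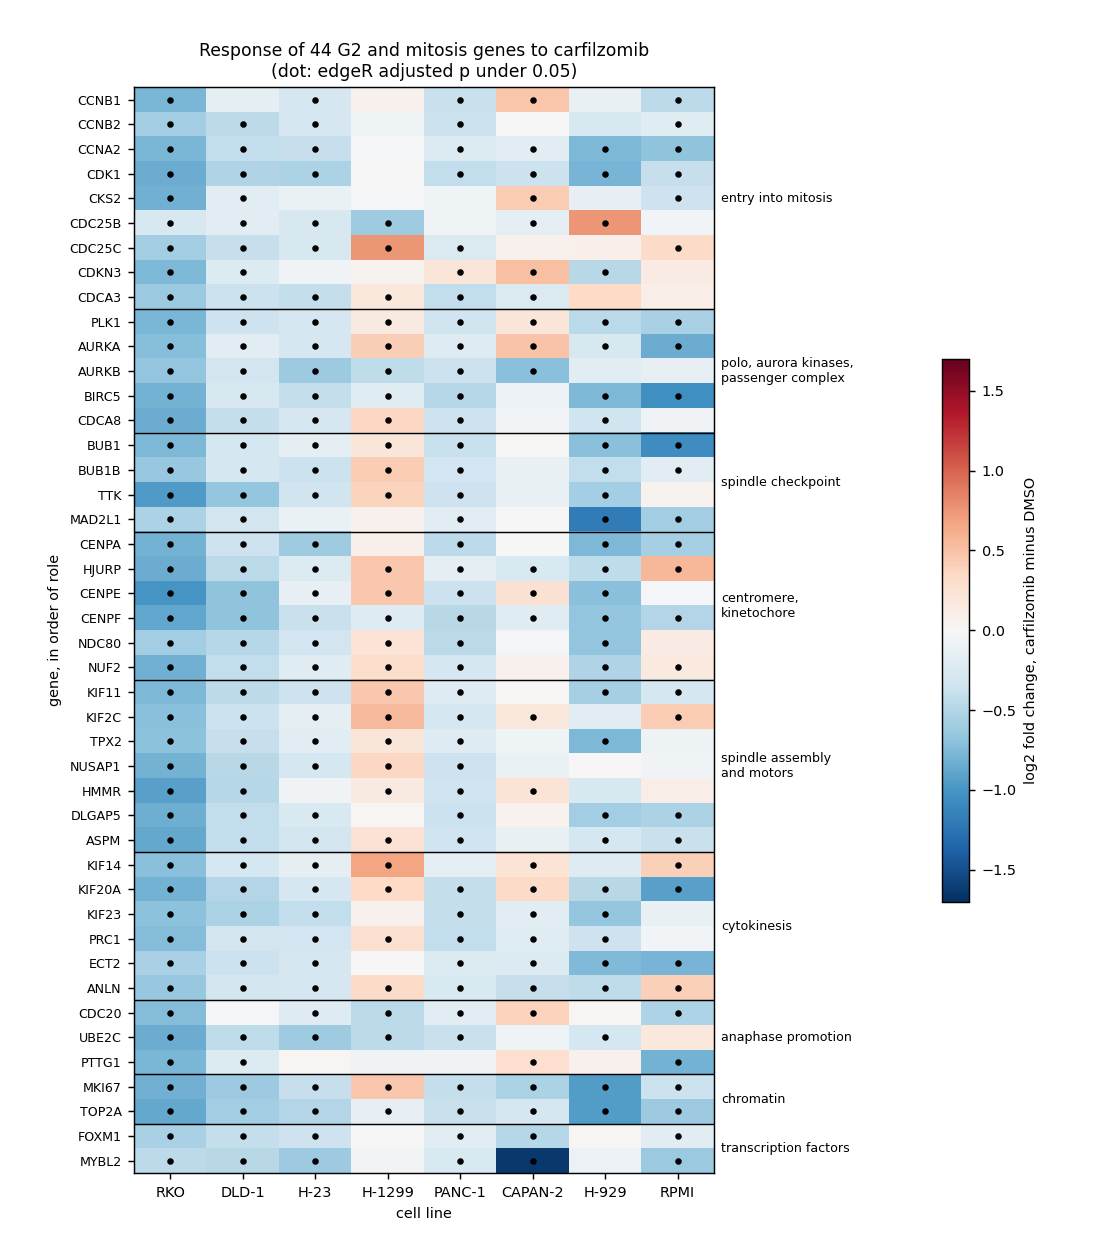
Log2 fold changes of the 44 genes (rows, grouped by role) in the 8 lines (columns), blue where carfilzomib was lower than DMSO and red where it was higher, with a dot at an edgeR adjusted p under 0.05. The RKO column is blue with a dot in 44 of 44 rows, and the H-1299 column holds 23 dotted red and 7 dotted blue cells.

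Summed over the members, levels in RKO lay between 6029 and 6151 CPM in the DMSO libraries and between 3472 and 3639 CPM after carfilzomib. The CPM of members are scaled by TMM within a line. The sum was also lower, without overlap, in DLD-1 (8106 to 8323, then 6073 to 6120 CPM), H-23 (10110 to 10470, then 8013 to 8466 CPM) and PANC-1 (7416 to 7664, then 5861 to 6100 CPM). H-929 went from 6480 to 6586 CPM down to 4210 to 5162 CPM, and RPMI from 6437 to 7175 CPM down to 5001 to 5929 CPM. In CAPAN-2 the ranges were 7686 to 8140 and 7483 to 7546 CPM, and H-1299 alone had its 3 carfilzomib libraries, at 12170 to 12570 CPM, above its DMSO libraries at 11020 to 11330 CPM. No test was made of these sums.

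**Figure D2:**
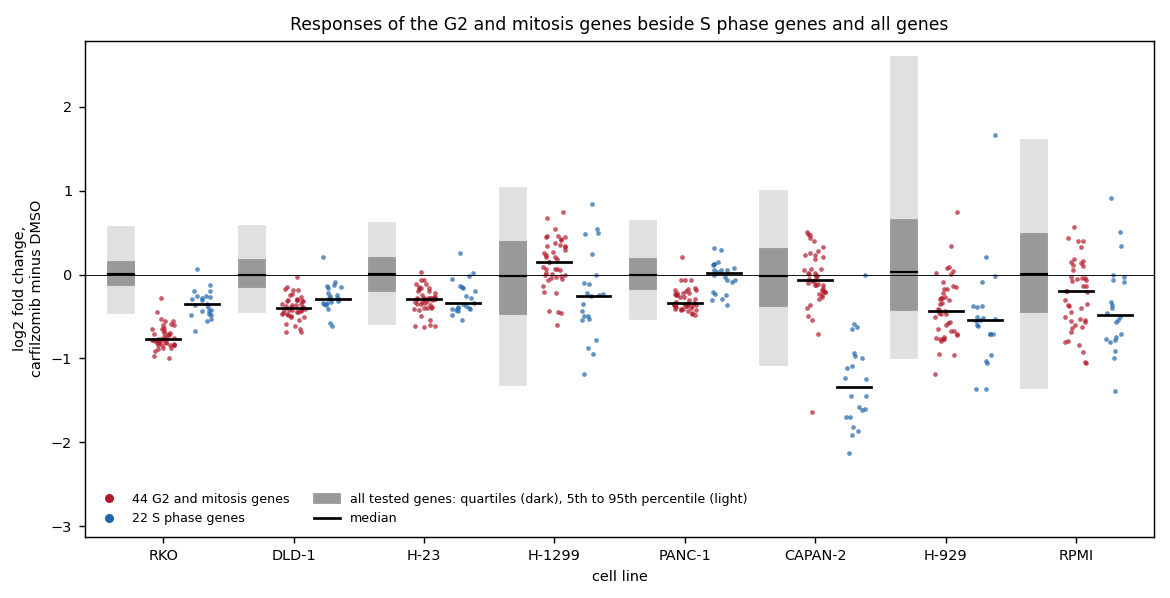
Log2 fold changes per line (carfilzomib over DMSO) of the 44 G2 and mitosis genes (red points), of 22 S phase genes (blue points) and of all genes tested (grey boxes: quartiles dark, 5th to 95th percentile light), with medians as black lines. The red median is below the all-gene median in 7 lines and above it in H-1299, at 0.15, and in CAPAN-2 it is -0.06 beside -1.34 for the S phase genes.

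On average over the 8 lines every member was lower, 44 of 44, in a joint edgeR fit of all 48 libraries in which 23.9% of 22309 genes were lower and 19.8% higher. The median average was -0.32, beside 0.02 for all genes tested. Averages were lowest for TOP2A at -0.58 ± 0.025, MYBL2 at -0.57 ± 0.024, BIRC5 at -0.55 ± 0.023, CENPF at -0.54 ± 0.025 and CDK1 at -0.52 ± 0.026 (SE of the spread between replicates, not between lines), and nearest 0 for KIF14 at -0.070 ± 0.026, CDC25C at -0.073 ± 0.029 and KIF2C at -0.11 ± 0.024. The response differed between lines for all 44 members by the interaction test (largest adjusted p 0.0018, CCNB2), where 67.7% of all genes differed. CENPF and TOP2A were lower in all 8 lines, as were 0.473% of the 11622 genes tested in every line. CCNA2, CDK1, BIRC5, ECT2 and MKI67 were lower in 7 lines, and 24 members were lower in at least 6, against 4.26% of genes. CKS2, CDKN3, HMMR, KIF14 and PTTG1 were lower in 3 lines, the fewest. In different lines 29 members were called in both directions, as were 47.8% of genes, and 15 were higher in no line.

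**Figure D3:**
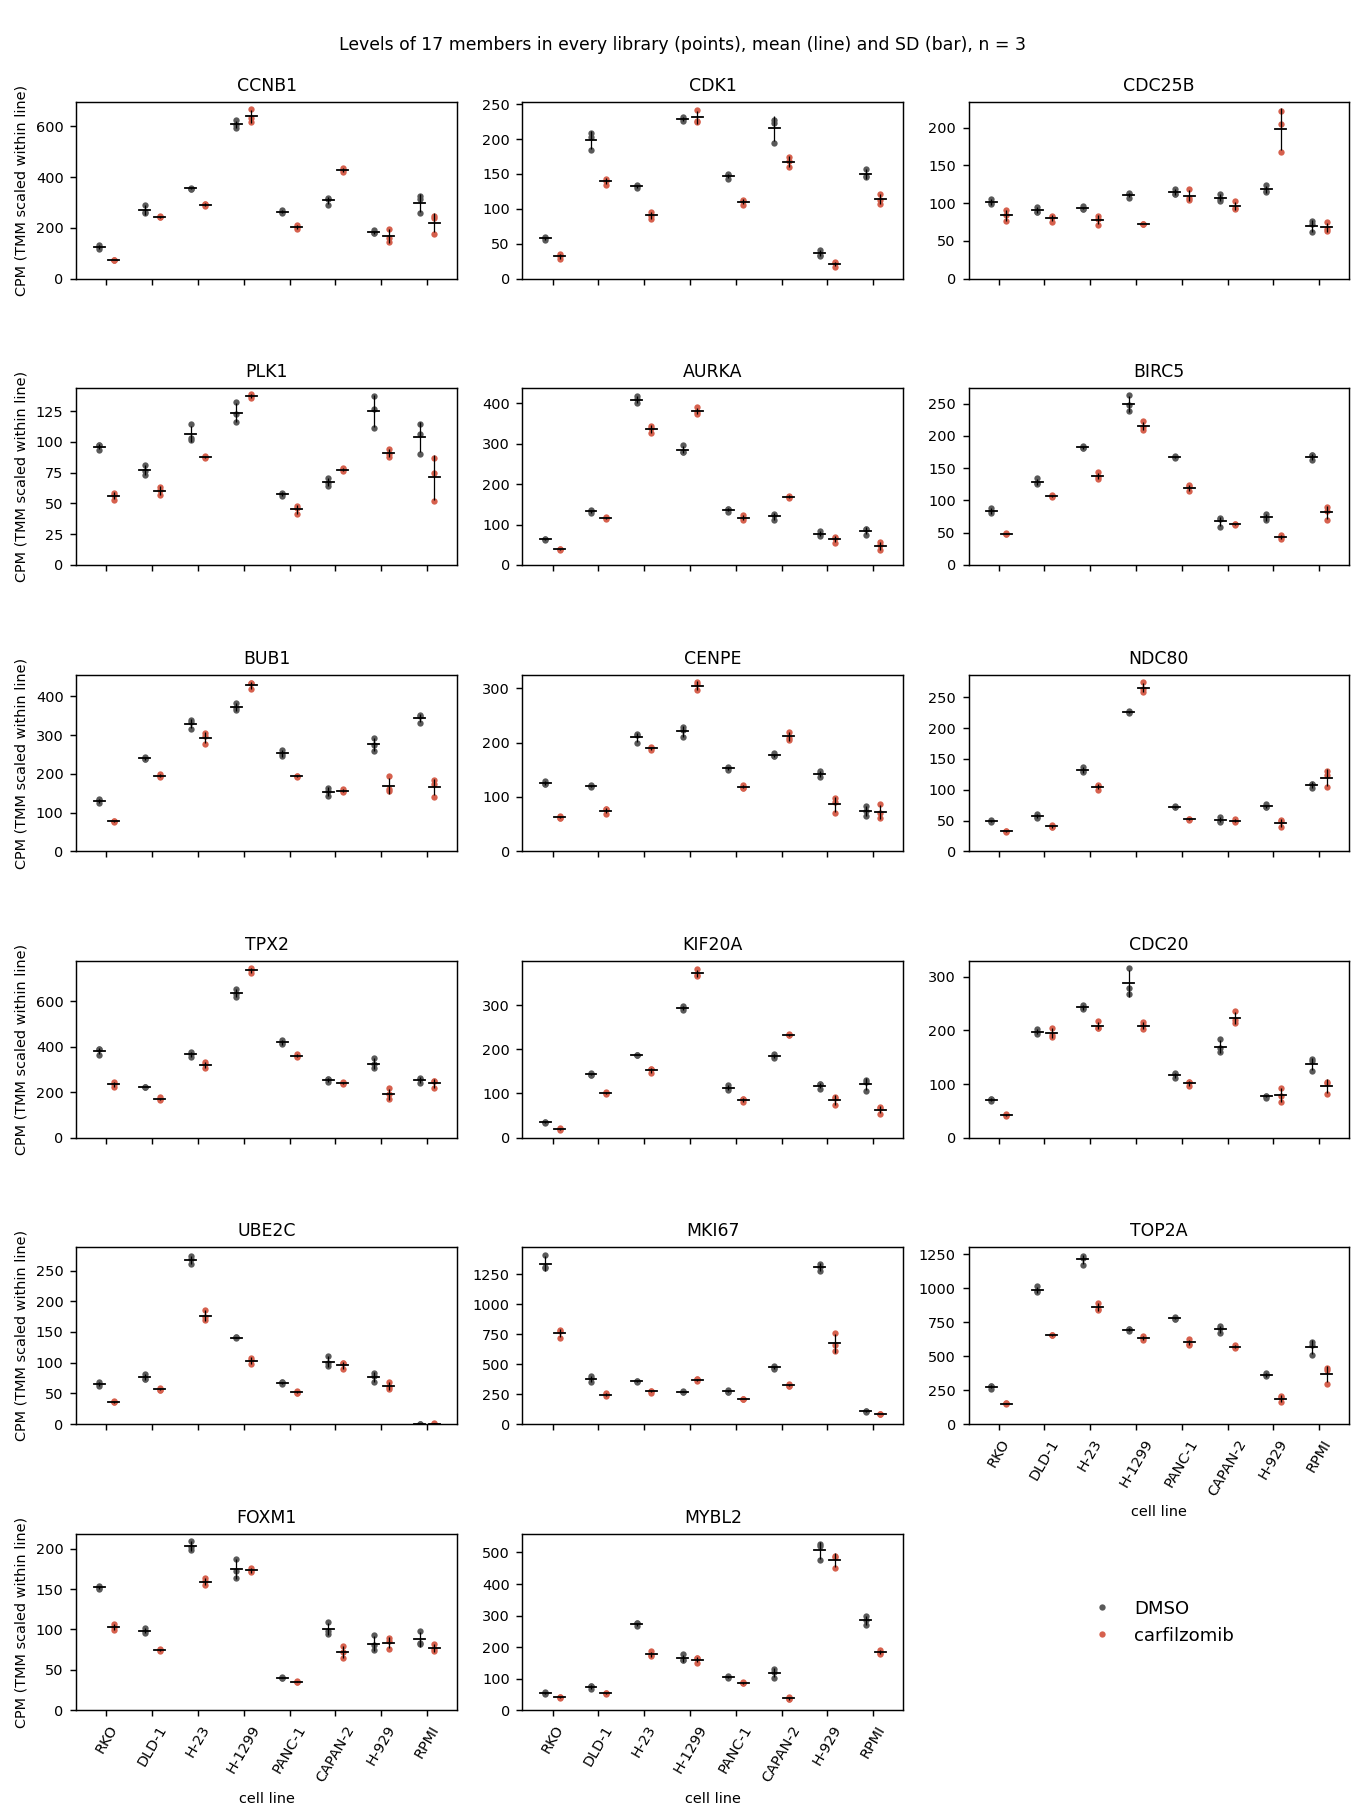
CPM (vertical axes, from 0, TMM scaled within a line) of members of each role in every library of the 8 lines, grey for DMSO and red for carfilzomib, with the mean as a line and the SD as a bar (n = 3). TOP2A is lower after carfilzomib in all 8 lines, CCNB1 is higher in CAPAN-2, and UBE2C in RPMI lies at the axis.

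Of the 9 genes of entry into mitosis, 9 fell in RKO, 8 in DLD-1, 7 in H-23, 6 in PANC-1, 5 in RPMI, 4 in CAPAN-2 and 3 in H-929. In CAPAN-2 3 of the 9 rose, in H-1299 1 fell and 2 rose, and in H-929, PANC-1 and RPMI 1 rose. Of all genes tested, 5.28% fell in RKO, 12.1% in DLD-1, 16.2% in H-23 and 18.2% in PANC-1. The shares lower were 32.2% in RPMI, 26.7% in CAPAN-2, 26.2% in H-929 and 31.3% in H-1299. Rises made up 25.7% of all genes in CAPAN-2, 29.8% in H-1299, 26.4% in H-929, 20.5% in PANC-1 and 31.3% in RPMI. The falls in H-929 and the rises in CAPAN-2 and H-1299 are near these shares. CCNB1 encodes cyclin B1, the activator of CDK1 at the onset of mitosis. In RKO it measured 123, 117 and 134 CPM in DMSO and 74.2, 72.96 and 71.6 CPM after carfilzomib. All carfilzomib libraries were lower, a log2 fold change of -0.78 ± 0.058 (SE), adjusted p 5.4e-06. CAPAN-2 went the other way, from 315, 318 and 292 to 426, 438 and 422 CPM. Here the groups were apart with carfilzomib above, at 0.48 ± 0.055 and adjusted p 4.5e-06. In DLD-1 the log2 fold change of -0.15 ± 0.051 missed the threshold at adjusted p 0.059, and in H-1299 and H-929 the groups overlapped.

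CDK1, the kinase itself, behaved more evenly. It was lower in 7 lines, from -0.84 in RKO and -0.79 in H-929 to -0.36 in CAPAN-2, and in H-1299 its DMSO levels of 229, 232 and 226 CPM overlapped with 226, 225 and 242 CPM after carfilzomib. So in CAPAN-2 the cyclin rose and the kinase fell, the latter from 223, 228 and 195 to 159, 174 and 169 CPM. CCNA2, which encodes cyclin A2, followed CDK1 with 7 lines lower. Its call in CAPAN-2, at -0.19, was lost in 4 of 6 fits without 1 library. CCNB2, the other B cyclin, was lower in 5 lines and higher in none.

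CDC25B and CDC25C encode phosphatases that remove the inhibitory phosphates of CDK1, and they had opposite extremes in H-1299. CDC25B fell there from 112, 107 and 113 to 72.96, 72.7 and 72.8 CPM. The libraries of each group lay close together and the groups were apart, with a log2 fold change of -0.60 ± 0.043 and adjusted p 9.5e-08, the lowest of the 44 in that line. CDC25C rose from 53.2, 51.03 and 56.4 to 89.2, 90.1 and 90.2 CPM, the highest of the 44 at 0.75 ± 0.050 and adjusted p 5.1e-08. All its carfilzomib libraries were above DMSO, while in RKO they were below it, at 18.6, 19.3 and 16.4 CPM after 28.8, 28.4 and 24.9 CPM, or -0.59 ± 0.11. CDC25B was also the only member called higher in H-929, from 124, 115 and 116 to 222, 168 and 204 CPM. Its carfilzomib libraries were spread but all above DMSO, at 0.75 ± 0.098 and adjusted p 1.9e-05. In RKO CDC25B had the smallest fall of the 44, from 100, 99.1 and 105 to 90.95, 76.3 and 84.7 CPM. Its log2 fold change of -0.27 ± 0.064 had an adjusted p of 0.02, and 3 of 6 fits lost it, those without DMSO replicate 3, carfilzomib replicate 2 or carfilzomib replicate 3. The falls of CDC25B in DLD-1 and CAPAN-2 were lost in 5 and 4 of 6 such fits.

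The remaining genes of this role were CKS2, a small subunit of CDK complexes, CDKN3, a phosphatase that acts on CDKs, and CDCA3, which takes part in the degradation of the CDK1 inhibitor WEE1. CDKN3 had the largest rise of the 44 in CAPAN-2, from 53.5, 56.04 and 44.5 to 73.1, 71.98 and 73 CPM. The groups were apart, at 0.51 ± 0.076 and adjusted p 5.7e-05. It was also the only member called higher in PANC-1, from 20.04, 20.4 and 16.9 to 22.4, 20.99 and 22.6 CPM. That rise of 0.20 ± 0.073 had an adjusted p of 0.041 and was lost without DMSO replicate 3, carfilzomib replicate 1 or carfilzomib replicate 3. In RKO CDKN3 fell from 27.1, 27 and 28.8 to 15.02, 16.4 and 17.2 CPM, at -0.77 ± 0.10. CKS2 fell in RKO from 81.4, 97.2 and 96.4 to 50.9, 57.2 and 49.3 CPM and rose in CAPAN-2 from 68.2, 65.7 and 57.1 to 85.9, 85.9 and 86.7 CPM. No groups overlapped, at -0.81 ± 0.080 and 0.44 ± 0.067. CDCA3 rose in H-1299 from 105, 110.4 and 109 to 118, 124 and 127 CPM, at 0.18 ± 0.044, and fell in RKO from 20.9, 22.7 and 25.99 to 12.8, 16.4 and 15.9 CPM, at -0.63 ± 0.13. CDCA3 in H-929 had a log2 fold change of 0.34 ± 0.15, adjusted p 0.068, and passed only without DMSO replicate 3.

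PLK1, AURKA, AURKB and the chromosomal passenger subunits BIRC5 (survivin) and CDCA8 (borealin) fell in all cases in RKO, DLD-1, H-23 and PANC-1, 5 of 5 in each. The shares of all genes lower there were 5.28%, 12.1%, 16.2% and 18.2%. PLK1, the polo-like kinase of mitotic entry and spindle pole maturation, measured 97.8, 93.7 and 97.3 CPM in RKO under DMSO and 58.7, 56.8 and 53.2 CPM under carfilzomib. The groups were far apart, at -0.78 ± 0.057 and adjusted p 4.7e-06. In H-1299 it measured 116, 132 and 123 CPM and then 139, 135 and 137 CPM. The carfilzomib libraries were just above the highest DMSO library, and the rise of 0.15 ± 0.050 (adjusted p 0.02) was lost in 4 of 6 fits, those without replicate 1 or 3 of either group. In RPMI PLK1 fell from 90.6, 107 and 115 to 87.3, 74.8 and 51.7 CPM, with carfilzomib replicate 1 close to DMSO and replicate 3 well below it.

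AURKA, the aurora kinase of the spindle poles, and AURKB, the aurora kinase of the passenger complex, did not move together in H-1299 and CAPAN-2. AURKA rose in H-1299 from 280.2, 295 and 279.8 to 374, 378 and 389 CPM. AURKB fell there from 84.1, 88.8 and 86.3 to 62.8, 66.9 and 62.6 CPM. Neither pair of groups overlapped, with 0.42 ± 0.040 and -0.43 ± 0.049 and adjusted p of 1.3e-06 and 6e-06. In CAPAN-2 AURKA rose by 0.48 (adjusted p 9.7e-06) and AURKB fell by 0.71 (adjusted p 1.4e-06). In RPMI AURKA fell from 74.7, 89.7 and 89.1 to 55.9, 50.3 and 36.5 CPM, at -0.84 ± 0.12. AURKB in RPMI overlapped between the groups, at -0.14 ± 0.082 and adjusted p 0.16.

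BIRC5 was lower in 7 lines and was the member with the largest fall in PANC-1, from 166, 169 and 168 to 123, 114 and 122 CPM. The groups were apart there, at -0.49 ± 0.036 and adjusted p 4.9e-07. Its fall was larger in RPMI, from 162, 169.6 and 170.5 to 90.5, 84.1 and 69.7 CPM, or -1.04 ± 0.078 with adjusted p 6.2e-08. In CAPAN-2 its groups overlapped. CDCA8, another subunit of that complex, fell in RKO from 72.97, 73.2 and 70.02 to 42.4, 37.8 and 40.3 CPM, at -0.84 ± 0.063. In H-1299 it rose from 114, 123 and 115 to 148, 145 and 154 CPM, at 0.35 ± 0.045. BIRC5 fell in that line by 0.21, so the subunits moved in opposite directions there.

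Among the genes of the spindle assembly checkpoint, the 4 members BUB1, BUB1B, TTK and MAD2L1 all fell in RKO, DLD-1, PANC-1 and H-929, and BUB1, BUB1B and TTK rose in H-1299. Of all genes, 5.28%, 12.1%, 18.2% and 26.2% were lower in RKO, DLD-1, PANC-1 and H-929, and 29.8% were higher in H-1299. BUB1, a kinase that recruits checkpoint proteins to kinetochores, had the largest fall of the 44 in RPMI. It went from 331, 348 and 353 to 173, 183 and 142 CPM. The carfilzomib libraries were all far below the DMSO range, at -1.05 ± 0.080 and adjusted p 6.8e-08. In H-1299 BUB1 rose from 369, 383 and 364 to 434, 418 and 435 CPM, at 0.21 ± 0.039 and adjusted p 0.00052. MAD2L1, which encodes the checkpoint effector that binds CDC20, had the largest fall in H-929, from 68.5, 72.3 and 67.95 to 32.8, 32.3 and 26.7 CPM. The groups were widely apart, at -1.18 ± 0.11 and adjusted p 7.2e-07, a level 55.97% lower. BUB1B, also called BUBR1, fell in RKO from 143, 136 and 133 to 86.3, 92.2 and 84.9 CPM and rose in H-1299 from 189.7, 204 and 184 to 261, 258 and 256 CPM. TTK, the checkpoint kinase MPS1, fell in RKO from 27.2, 30.6 and 29.9 to 15.9, 14.6 and 14.4 CPM and rose in H-1299 from 276, 260 and 269.6 to 345, 337 and 363 CPM. No groups overlapped for either gene, at -0.65 ± 0.051 and -0.97 ± 0.10 in RKO and 0.43 ± 0.045 and 0.37 ± 0.043 in H-1299. In CAPAN-2 BUB1, BUB1B, TTK and MAD2L1 lay between -0.13 and 0.024, with adjusted p from 0.078 to 0.99.

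The 6 centromere and kinetochore genes fell without exception in RKO, DLD-1, H-23, PANC-1 and H-929. The corresponding shares of all genes lower were 5.28%, 12.1%, 16.2%, 18.2% and 26.2%. CENPE, the kinetochore motor that moves chromosomes to the metaphase plate, had the largest fall of the 44 in RKO. It measured 129.7, 124 and 123 CPM in DMSO and 61.5, 64.8 and 62.1 CPM after carfilzomib. All carfilzomib libraries lay far below DMSO, the fitted level 49.9% lower, at -0.997 ± 0.051 and adjusted p 3.9e-07. In H-1299 CENPE rose from 229.5, 209.6 and 224 to 311, 296 and 308 CPM. That rise, again without overlap, was 0.46 ± 0.044 with adjusted p 1.3e-06, and CAPAN-2 gave a smaller rise of 0.26.

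CENPF, a large kinetochore and nuclear matrix protein, was the member with the largest fall in DLD-1, from 743, 706 and 673 to 446, 451 and 418 CPM. The fall was -0.69 ± 0.048 with adjusted p 9e-06, and the groups were apart. H-1299 and CAPAN-2 gave its smallest falls, -0.21 and -0.21. NDC80, the microtubule-binding subunit of the outer kinetochore, fell in H-929 from 76.3, 72.7 and 71.7 to 48.5, 51.4 and 38.7 CPM and rose in H-1299 from 226, 225 and 228 to 264, 259 and 275 CPM. Both changes left the groups apart, at -0.67 ± 0.11 and 0.23 ± 0.039. Its partner NUF2 did the same, from 94.9, 89.4 and 88.9 to 75.5, 73.5 and 43.2 CPM in H-929 and from 93.2, 86.5 and 92.9 to 113, 109 and 112 CPM in H-1299. The changes were -0.51 ± 0.16 and 0.30 ± 0.046, with the groups apart. NUF2 also rose in RPMI, by 0.17, a call lost in 3 of 6 fits, those without DMSO replicate 1, carfilzomib replicate 1 or carfilzomib replicate 2.

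CENPA, the centromeric histone variant, and HJURP, its chaperone, were parted in RPMI. CENPA fell from 34.8, 42.4 and 41.1 to 30.6, 25.04 and 24.96 CPM. HJURP had the largest rise of the 44, from 42.98, 57.6 and 50.98 to 75.4, 82.05 and 67.8 CPM. Both were without overlap, at -0.56 ± 0.097 (adjusted p 0.00019) and 0.56 ± 0.094 (adjusted p 0.00014). In RKO both fell, CENPA by 0.81 and HJURP from 123, 116 and 115 to 71.6, 63.9 and 62.4 CPM, at -0.84 ± 0.061.

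Of the 7 genes of spindle assembly and spindle motors, 7 fell in RKO, DLD-1 and PANC-1 and 6 in H-23, and 6 rose in H-1299. Among all genes 5.28%, 12.1%, 18.2% and 16.2% fell in RKO, DLD-1, PANC-1 and H-23, and 29.8% rose in H-1299. TPX2, the microtubule nucleator that activates AURKA, fell in H-929 from 323, 349.9 and 304 to 217, 189.9 and 169 CPM. All carfilzomib libraries were lower, at -0.76 ± 0.093 and adjusted p 1e-05. In H-1299 it rose from 619, 655 and 634 to 738, 725 and 747 CPM, by 0.21 ± 0.038 with adjusted p 0.00033. KIF11, the motor that pushes spindle poles apart, rose in H-1299 from 259, 242 and 246 to 351, 326 and 347 CPM, at 0.45 ± 0.044, and fell in RKO from 138, 148 and 138 to 81.8, 88.8 and 80.1 CPM, at -0.76 ± 0.054. KIF2C is a kinesin that takes microtubules apart at centromeres. It rose in H-1299 from 229, 239 and 245 to 342, 351 and 347 CPM, at 0.55 ± 0.040, and fell in RKO from 140.5, 134 and 130.2 to 84.1, 81.6 and 82.3 CPM, at -0.70 ± 0.049. KIF2C rose in CAPAN-2 (0.19) and RPMI (0.44) too, so the rises numbered 3 and the falls 4.

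HMMR, a spindle-associated receptor of hyaluronan, fell in RKO by 0.92 from a low level of 11.2, 9.94 and 9.45 CPM, with 65 to 208 counts per library. The RKO carfilzomib libraries were all lower, at 5.28, 4.77 and 6.11 CPM. It rose in H-1299 (0.15) and in CAPAN-2, from 159, 157 and 144 to 184, 177 and 178 CPM, at 0.23 ± 0.056. NUSAP1 and ASPM, which bind spindle microtubules and spindle poles, both fell in RKO and rose in H-1299, with no overlap. NUSAP1 went from 128, 130.3 and 132 to 73.8, 79.8 and 70.9 CPM in RKO and from 319, 309 and 312 to 407, 394 and 403 CPM in H-1299, or -0.80 ± 0.054 and 0.36 ± 0.037. ASPM went from 210.3, 210.5 and 197 to 119, 109.6 and 109 CPM in RKO and from 381, 353 and 355 to 423, 423 and 452 CPM in H-1299, or -0.87 ± 0.050 and 0.25 ± 0.045. DLGAP5, another spindle assembly factor, was lower in 6 lines and its groups overlapped in H-1299.

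The 6 cytokinesis genes all fell in RKO, DLD-1 and H-23, against 5.28%, 12.1% and 16.2% of all genes. KIF20A, the kinesin that brings the passenger complex to the central spindle, fell in RPMI and rose in H-1299 and CAPAN-2. In RPMI it fell from 106, 132 and 125 to 67.9, 69.6 and 53.8 CPM. In H-1299 it rose from 289, 297 and 293 to 365, 368 and 382 CPM, and in CAPAN-2 from 185, 189.8 and 181 to 235, 232 and 232 CPM. None of these groups overlapped, at -0.93 ± 0.096, 0.34 ± 0.038 and 0.33 ± 0.051, with adjusted p of 1.5e-06, 5.2e-06 and 7.5e-05. KIF14, a kinesin of the midbody, rose in H-1299 from 136, 131 and 129.5 to 214, 207 and 213 CPM, by 0.68 ± 0.041, and also in CAPAN-2 (0.23) and RPMI (0.40). In RKO KIF14 fell from 107, 92.3 and 101 to 60.97, 61.4 and 61.8 CPM, at -0.70 ± 0.061. Its fall in DLD-1 (-0.29) was lost in 4 of 6 fits without 1 library.

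ANLN, the scaffold of the contractile ring, and ECT2, the exchange factor that starts the furrow through RhoA, moved in opposite directions in RPMI. ANLN rose from 86.5, 94.6 and 92.4 to 112, 127 and 122 CPM. ECT2 fell from 179.6, 191 and 193 to 106, 116 and 104 CPM. Neither gene's groups overlapped, at 0.40 ± 0.060 and -0.80 ± 0.057. In RKO ANLN fell from 147, 155 and 156 to 95.3, 102 and 94.5 CPM, at -0.65 ± 0.050. KIF23 and PRC1, which bundle the microtubules of the central spindle, were each lower in 6 lines. PRC1 fell in RKO from 135, 136 and 139 to 89.1, 77.4 and 78.6 CPM, at -0.74 ± 0.058, and rose in H-1299 from 266, 279.7 and 273 to 329.6, 332 and 325 CPM, at 0.27 ± 0.038, again without overlap.

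None of the 3 genes of anaphase promotion was among the 23 that rose in H-1299, where 29.8% of all genes rose. CDC20, the activator of the anaphase-promoting complex, fell there from 268, 316 and 279 to 202, 215 and 209.9 CPM. There was no overlap, at -0.46 ± 0.057 and adjusted p 1.4e-05. In CAPAN-2 it rose from 167, 183 and 159 to 214, 219 and 237 CPM, by 0.40 ± 0.064 with adjusted p 0.00011. In DLD-1 it had the smallest response of the 44, with overlapping levels of 202, 198 and 193 and 192, 187 and 205 CPM and a log2 fold change of -0.023 ± 0.047 (adjusted p 0.78).

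UBE2C, the ubiquitin-conjugating enzyme of that complex, fell in H-1299 from 141, 142 and 139.5 to 97.1, 105 and 107 CPM and in H-23 from 261, 274 and 269 to 175, 169 and 186 CPM. Both were without overlap, at -0.45 ± 0.046 and -0.60 ± 0.041. In RPMI the 6 libraries held only 0.624 to 1.22 CPM, with overlapping groups (adjusted p 0.7), a depth at which a change of the size seen elsewhere was not detectable. UBE2C has 4 named pseudogenes, and reads shared with them are uncertain. PTTG1, securin, the inhibitor of separase, fell in RPMI from 137, 126 and 129 to 81.8, 80.2 and 63.8 CPM and rose in CAPAN-2 from 96.99, 96.4 and 87.1 to 108, 119.7 and 114 CPM. The groups were apart in both lines, at -0.80 ± 0.081 and 0.29 ± 0.062. In H-23 it had the highest value of the 44, with overlapping levels of 112, 114 and 107 and 107, 116 and 117 CPM and a log2 fold change of 0.032 ± 0.044 (adjusted p 0.63).

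MKI67, which coats mitotic chromosomes and is the common marker of proliferation, fell in 7 lines and rose in H-1299. In H-929 it went from 1306, 1272 and 1338 to 758, 655 and 606 CPM. In H-1299 it went from 267, 279 and 266 to 362, 374 and 377 CPM. The groups were apart in both, at -0.96 ± 0.083 (adjusted p 4e-07) and 0.45 ± 0.039 (adjusted p 5.5e-07). TOP2A, the topoisomerase that untangles sister chromosomes, fell in all 8 lines. In H-929 it went from 362, 378 and 351 to 199, 204 and 161 CPM, its largest fall at -0.95 ± 0.090. Its smallest fall was in H-1299, from 702, 684 and 703 to 619, 632 and 648 CPM, still without overlap, at -0.14 ± 0.037 and adjusted p 0.0061.

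The transcription factors FOXM1 and MYBL2 were each lower in 6 lines, the same 6, and were not called in H-1299 or H-929. MYBL2, or B-MYB, had the largest fall of any member in any line, in CAPAN-2, from 122, 131 and 103 to 35.7, 35.6 and 43.3 CPM. The highest carfilzomib library was far below the lowest DMSO library, at -1.64 ± 0.093 and adjusted p 2.8e-09, a level 67.95% lower. FOXM1 in CAPAN-2 went from 98.7, 109 and 94.8 to 64.7, 71.9 and 79.2 CPM, at -0.49 ± 0.076 and adjusted p 7.7e-05. MYBL2 was also the member with the largest fall in H-23, from 266, 276 and 276 to 187, 171 and 174 CPM, at -0.62 ± 0.040 and adjusted p 5.9e-08. In H-1299 MYBL2 (-0.043 ± 0.055) and FOXM1 (-0.0075 ± 0.051) had overlapping groups, while 23 other members rose there.

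Whether the lines of a tumour type respond alike was tested by the difference of their responses in the joint fit. For RKO against DLD-1, 22 members differed, where 4.04% of all genes did. All 22 were lower in RKO, where 2.24% of genes had a difference in that direction and 1.80% in the other, with CDC20 at -0.72 ± 0.11, CKS2 at -0.63 ± 0.10 and CCNB1 at -0.63 ± 0.12 in the lead. Without replicates 1, 2 or 3 the count was 9, 7 and 12. For H-1299 against H-23, 32 members differed, against 30.8% of genes, and 30 of them were higher in H-1299, against 13.3%. The largest were CDC25C at 0.97 ± 0.11, MKI67 at 0.80 ± 0.079 and KIF14 at 0.79 ± 0.10, while CDC25B (-0.38 ± 0.11) and CDC20 (-0.29 ± 0.10) were lower in H-1299. Of all genes, 17.5% had a lower response in H-1299.

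For CAPAN-2 against PANC-1, 29 members differed, against 24.9% of genes. CAPAN-2 was the higher line for 26 of them, against 13.5%, led by CCNB1 at 0.88 ± 0.12, KIF20A at 0.77 ± 0.099 and AURKA at 0.73 ± 0.11. It was the lower line for AURKB, FOXM1 and MYBL2, the last at -1.35 ± 0.098, against 11.4% of genes. The count of 29 was 16 without replicate 2 of every group. For H-929 against RPMI, 29 members differed, against 40.5% of genes. H-929 had the lower response for 22, a share of members above the 21.5% of all genes, with HJURP at -1.07 ± 0.11, ANLN at -0.92 ± 0.10 and NDC80 at -0.90 ± 0.10. RPMI had the lower response for 7, against 18.9% of genes, namely AURKA, BUB1, CDC25B, KIF20A, CDC20, PTTG1 and MYBL2.

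**Figure D4:**
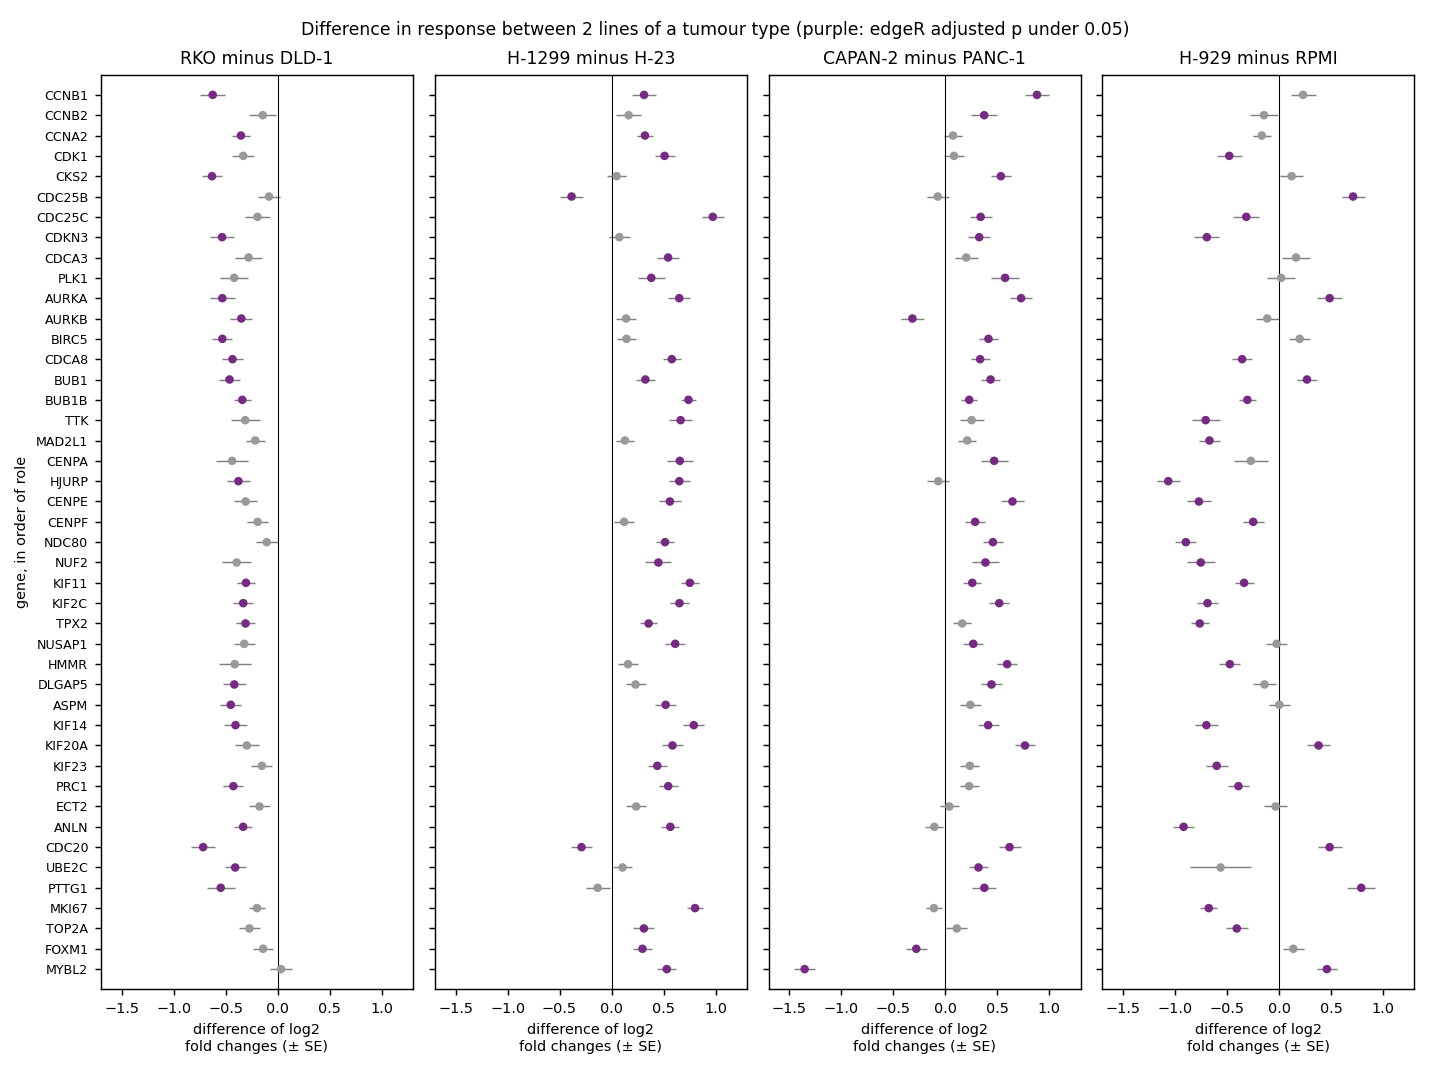
Difference of the log2 fold changes (carfilzomib over DMSO) between the lines of each tumour type for the 44 genes, with its SE as a bar and purple where the edgeR adjusted p was under 0.05. The 22 purple points of RKO minus DLD-1 lie below 0, and 30 of 32 for H-1299 minus H-23 lie above 0.

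The members higher in H-1299 were also read in other lines. All 44 members were lower in RKO, so the 23 that were higher in H-1299 were necessarily among them. Thus 23 of 44 members combined a fall in RKO with a rise in H-1299, as did 3.07% of the 11622 genes tested in every line. CAPAN-2 shared 7 of these rises and had 5 of the 23 as falls, and RPMI shared 6 of them, which are all its rises, and had 8 as falls. As shares of the 23, those in CAPAN-2 are near the 25.7% of all its genes that were higher and 26.7% lower. Those in RPMI are near its 31.3% higher and 32.2% lower. Whether members that rose in H-1299 were more likely than the other members to rise in these lines was not tested. AURKA, CENPE, HMMR, KIF14, KIF20A, KIF2C and PLK1 rose in both H-1299 and CAPAN-2. ANLN, CDC25C, HJURP, KIF14, KIF2C and NUF2 rose in both H-1299 and RPMI, so KIF14 and KIF2C rose in all 3 lines.

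The scaling bears on H-1299. With library totals in place of TMM, the median of all genes there moved from -0.02 to -0.12, and members were called lower 16 times and higher 20 times. All 7 members lower under TMM were still lower, and of the 23 higher 20 were still higher, without CDCA3, PLK1 and HMMR. Rises made up 76.7% of the members' calls with TMM and 55.6% with library totals, beside 48.8% and 38.9% of the calls over all genes. The median of the members there moved from 0.15 to 0.04. In RKO rises made up 40.6% of the calls over all genes with TMM and 60.9% with library totals, and all 44 members were lower either way. In DLD-1 the corresponding shares of all calls were 47.5% and 60.3%, with 42 and 40 members lower.

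Without drug the levels also differed between lines. Per kilobase of exon, with TMM over the 24 DMSO libraries, the median member stood at 60.2 CPM in H-1299 and 19.4 CPM in RKO, the highest and the lowest of the 8 lines. H-1299 had the highest level for 24 members and RKO the lowest for 24. The other medians were 38.5 CPM in CAPAN-2, 36.7 in H-23, 36.3 in RPMI, 33.6 in DLD-1, 29.2 in H-929 and 28.1 in PANC-1. H-1299 is the line where most members rose and RKO the line where all fell, and the relation of level to response was not tested over the lines.

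Single genes spanned wider ranges. MKI67 ran from 9.40 CPM per kilobase in RPMI to 113 in H-929, with 92.8 in RKO although RKO was lowest for most members. MYBL2 ran from 17.9 in RKO to 201 in H-929, TTK from 5.67 in RKO to 62.4 in H-1299, and HMMR from 2.30 in RKO to 56.5 in H-1299. CDC25B was the most even member, from 18.1 in RPMI to 30.3 in H-929. UBE2C was at 0.638 in RPMI and at 187 in H-23, a ratio of 292.

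**Figure D5:**
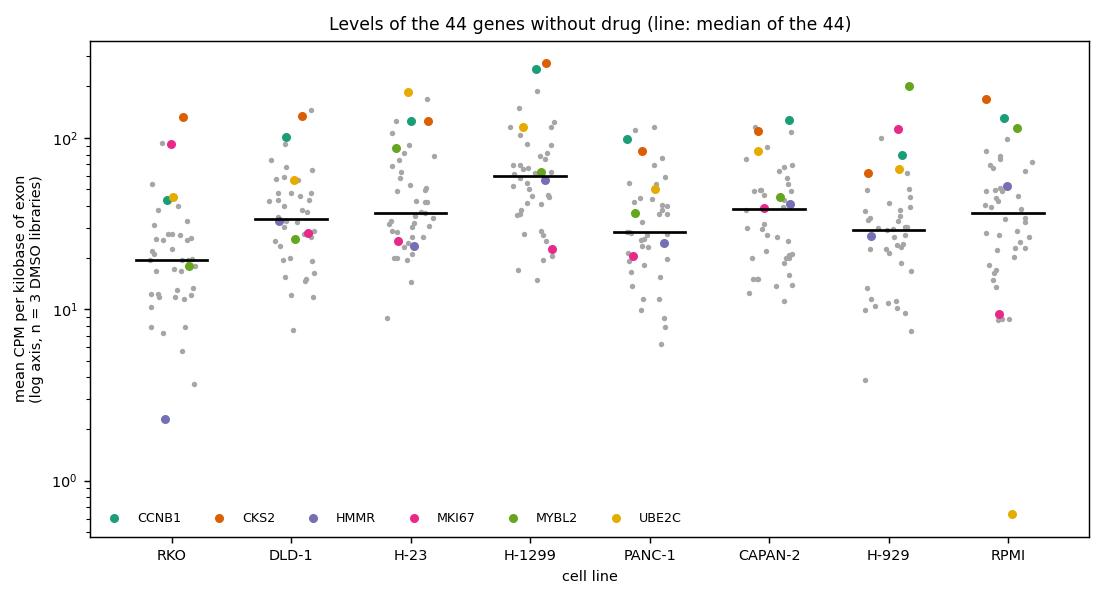
Mean CPM per kilobase of exon (log axis) of the 44 genes in the DMSO libraries of each line (points, n = 3 libraries), 6 genes coloured and medians as lines. The median is highest in H-1299 and lowest in RKO, and UBE2C in RPMI stands at 0.638, below all other points.

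Other genes of the pathway were read from lists named by function. Of 13 genes of condensin, cohesin protection and separase, 13 fell in RKO, DLD-1 and H-23 and 10 in PANC-1, while 8 rose and 3 fell in H-1299. Of the other spindle and cytokinesis genes, 15 of 16 tested fell in RKO and 12 of 17 rose in H-1299. Of the other kinetochore genes, 12 of 19 fell in RKO and 9 of 20 rose in H-1299 with 7 falling, and in RPMI 7 of 20 rose and 6 fell. The counts in RPMI are near the shares of all genes there (31.3% higher, 32.2% lower), as are the falls of this list in H-1299 (31.3% of all genes lower, 29.8% higher). In RKO 5.28% of all genes were lower. Of 13 G2 checkpoint and other mitotic kinases, 8 fell in RKO and 7 rose in H-1299. On average over the lines NCAPH (-0.58 ± 0.023) and SMC2 (-0.48 ± 0.025), condensin subunits, CENPM (-0.56 ± 0.037), a centromere protein, PSRC1 (-0.67 ± 0.036), a spindle protein, PKMYT1 (-0.46 ± 0.034), a kinase that inhibits CDK1, and GTSE1 (-0.42 ± 0.029), expressed in G2, had the largest falls of their lists. SPC25 and KIFC1 had larger average falls, but their rows share an identifier with other rows, so they are uncertain and no value is given.

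Of 17 genes of the anaphase-promoting complex and its regulators, 2 were called in RKO, both lower, and 9 fell and 6 rose in H-1299, beside 31.3% of all genes lower and 29.8% higher there. FBXO5, or EMI1, its inhibitor, fell in all 8 lines with an average of -0.54 ± 0.028, ANAPC11 averaged -0.35 ± 0.030, and ANAPC10 (0.35 ± 0.040) and ANAPC2 (0.17 ± 0.027) rose on average. Of 11 genes of the DREAM and MuvB complexes, TFDP1 (-0.64 ± 0.021) and RBL1 (-0.58 ± 0.022) fell on average and LIN37 (0.47 ± 0.052) and LIN54 (0.40 ± 0.029), subunits of the MuvB core, rose. RBL1, which encodes the repressor p107, fell in all 8 lines.

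Of the 7 tested inhibitors of cyclin-dependent kinases, CDKN1A, which encodes p21, rose on average by 0.56 ± 0.029, and CDKN2D averaged -0.17 ± 0.055. CDKN1A rose in 5 lines, among them H-1299, from 30.2, 30.7 and 28.2 to 65.4, 66.9 and 67.03 CPM, H-929 (1.35) and RPMI (1.24). In RKO, where all 44 members fell, its groups overlapped at 80.3, 80.5 and 86.8 and 74.7, 90.1 and 87.01 CPM, with a log2 fold change of 0.021 ± 0.071 and adjusted p 0.9. The largest average of this list was that of CDKN1C, which shares its identifier with another row and is given no value.

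A list of 22 S phase genes, which act before G2, was set beside the members. In CAPAN-2 21 of the 22 fell, with a median of -1.34, while the 44 members had a median of -0.06. MCM2, a subunit of the replicative helicase, fell there from 136, 151 and 129.8 to 37.6, 38.9 and 41.99 CPM. The carfilzomib libraries there were all below DMSO, at -1.82 ± 0.070. In PANC-1 6 S phase genes fell and 4 rose, with a median of 0.01, beside the 18.2% of all genes lower and 20.5% higher, while 39 of 44 members fell. MCM2 in PANC-1 had overlapping levels of 157, 155 and 159 and 158, 152 and 158 CPM. In H-1299 14 S phase genes fell and 5 rose (median -0.25), and in RKO 19 fell (median -0.36, beside -0.77 for the members). Of all genes, 31.3% were lower and 29.8% higher in H-1299, 5.28% lower in RKO and 26.7% lower in CAPAN-2. The rises in H-1299 are thus near the share of all genes. The medians were -0.54 and -0.43 for S phase genes and members in H-929, -0.48 and -0.20 in RPMI, -0.34 and -0.29 in H-23, and -0.29 and -0.40 in DLD-1. On average over the lines MCM4 (-0.71 ± 0.020) and MCM2 (-0.70 ± 0.027) had the largest falls of the list. The difference between the lists was not tested.

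The promoters of the members were read for the elements known from this programme. RefSeq (GRCh38.p14) gave a window from 250 bases before to 50 after the start for 38 of the 44 genes. It was searched on both strands for the cell cycle homology region (TTTGAA or TTCGAA), the element through which DREAM and MuvB complexes bind, for CCAAT, the box of the factor NF-Y, and for GGCGG, the core of the cell cycle dependent element. Matches of different motifs may share bases and were counted for each motif. The homology region was found in 29 of 38 members (76.3%) and in 16.4% of all 35116 promoters of the table. CCAAT was found in 29 members (76.3%) and 34.6% of all, both motifs in 24 (63.2%) and 6.38%, and 2 or more CCAAT in 19 (50%) and 10.8%. GGCGG was found in 97.4% of members and 59% of all promoters. A match is a string of letters and was not tested as a site.

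The promoters below are shown 5′ to 3′ on the strand of the gene, with matches to the homology region and to CCAAT, on either strand, in capitals. PLK1 has a CCAAT box followed by a homology region before the start, CENPF fell in all 8 lines, CDC20 fell in 5 lines and rose in CAPAN-2, MYBL2 had the largest fall, and CDC25B was the member that rose in H-929. The windows are chr16:23678639-23678938 (PLK1, plus strand), chr1:214602945-214603244 (CENPF, plus), chr1:43358731-43359030 (CDC20, plus), chr20:43666864-43667163 (MYBL2, plus) and chr20:3799798-3800097 (CDC25B, plus). The windows of CDC25B and PLK1 lie wholly inside the genes as GENCODE 29 draws them (chr20:3786772-3806121 and chr16:23677656-23690367), and that of MYBL2 begins before the gene's start there, at 43667019, and ends inside it.
PLK1: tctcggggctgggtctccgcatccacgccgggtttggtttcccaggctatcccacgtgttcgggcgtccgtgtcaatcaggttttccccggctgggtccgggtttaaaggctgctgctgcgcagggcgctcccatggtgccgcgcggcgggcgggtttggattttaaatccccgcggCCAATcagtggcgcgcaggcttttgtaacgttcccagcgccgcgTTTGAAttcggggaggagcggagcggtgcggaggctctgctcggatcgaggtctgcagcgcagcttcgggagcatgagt
CENPF: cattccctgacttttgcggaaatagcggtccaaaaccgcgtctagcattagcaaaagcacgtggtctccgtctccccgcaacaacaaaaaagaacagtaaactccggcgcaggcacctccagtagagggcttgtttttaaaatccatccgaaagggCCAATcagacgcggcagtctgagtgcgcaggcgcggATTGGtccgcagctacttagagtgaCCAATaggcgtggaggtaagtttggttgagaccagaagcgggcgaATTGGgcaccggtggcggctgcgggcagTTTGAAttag
CDC20: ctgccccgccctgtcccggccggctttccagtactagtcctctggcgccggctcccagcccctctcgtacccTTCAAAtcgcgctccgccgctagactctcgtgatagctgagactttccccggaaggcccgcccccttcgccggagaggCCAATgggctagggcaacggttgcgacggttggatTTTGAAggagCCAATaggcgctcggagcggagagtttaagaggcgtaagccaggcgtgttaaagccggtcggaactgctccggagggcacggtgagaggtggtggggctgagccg
MYBL2: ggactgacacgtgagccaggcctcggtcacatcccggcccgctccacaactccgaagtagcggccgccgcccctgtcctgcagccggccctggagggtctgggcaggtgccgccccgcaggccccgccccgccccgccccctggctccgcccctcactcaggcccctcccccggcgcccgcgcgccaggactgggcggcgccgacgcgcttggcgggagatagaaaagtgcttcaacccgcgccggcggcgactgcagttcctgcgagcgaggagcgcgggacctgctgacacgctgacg
CDC25B: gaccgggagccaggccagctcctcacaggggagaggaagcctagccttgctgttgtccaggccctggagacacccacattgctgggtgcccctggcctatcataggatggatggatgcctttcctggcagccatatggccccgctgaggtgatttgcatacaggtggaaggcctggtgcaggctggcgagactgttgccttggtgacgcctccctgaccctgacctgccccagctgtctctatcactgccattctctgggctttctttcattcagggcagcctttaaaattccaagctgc

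In PLK1 the homology region begins 29 bases and the CCAAT box 73 bases before the start. CENPF has 4 CCAAT boxes, at -94, -58, -33 and 13, and its homology region lies after the start, at 41. CDC20 has homology regions at -178 and -65 and CCAAT boxes at -100 and -55. MYBL2 and CDC25B hold neither motif in this window, and no match says only that these letters are not there. The other members without a match to TTTGAA or TTCGAA were CCNB1, CCNA2, AURKB, CENPE, KIF2C, KIF20A and PTTG1. Other spellings were not searched, so these members may still hold a homology region. Below, with or without the region means with or without these letters. In RKO 29 of 29 members with the region and 9 of 9 without it were lower, with medians of -0.77 and -0.78, and in H-23 25 of 29 and 8 of 9 were lower, with medians of -0.29 in both. In H-1299 17 of 29 with the region and 3 of 9 without it rose, with medians of 0.19 and -0.03, and in CAPAN-2 6 of 29 and 5 of 9 rose, with medians of -0.03 and 0.19. In H-929 21 of 29 with the region and 3 of 9 without it fell, with medians of -0.46 and -0.175, while in RPMI 16 of 29 and 5 of 9 fell and the medians were -0.20 and -0.44. In DLD-1 28 of 29 and 8 of 9 fell (medians -0.40 and -0.37), and in PANC-1 26 of 29 and 7 of 9 (medians -0.34 and -0.30). These splits are descriptions with no test.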

How the data were processed

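The deposited matrix holds raw read counts per gene that the authors made from TruSeq stranded total RNA libraries, per the labels' protocols. Per the submitters' processing notes, bcl2fastq 2.19, FastQC, Trimmomatic, HISAT2 and DESeq2 were used with the build hg38. The counting program, its annotation and its use of strand are not given in the sources used here, so the values of 14 members whose exons overlap an antisense gene, of 4 that overlap another gene on the same strand (BUB1B, CENPA, NUSAP1 and PRC1), and of 7 with a named pseudogene, are uncertain to that extent. Identifiers occur more than once for 4803 rows, none of them a member.

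Here each line was fitted alone with edgeR 4.0.16 (R 4.3.3, TMM scaling, filterByExpr, quasi-likelihood F test, Benjamini-Hochberg over all genes tested, threshold 0.05), and all 48 libraries in 1 fit of 16 groups for averages and differences between lines. Errors beside log2 fold changes are standard errors from that test. The members, lists and named genes were chosen with earlier results of these data known. Named were a panel from each role with the values of every library (in the plot of levels), the extremes of each line, members called in opposite directions, and the 2 largest average falls and rises of each other list. Replicates of a group differed by more than counting noise (lowest chi-square per degree of freedom 3.33). DESeq2 1.42.0, other scalings, no filter, summed rows, the replicate block, 1 fit of all lines and leaving out each library were tried as alternatives. The edgeR steps were tested on data simulated from RKO and RPMI, with changes put in genes drawn from all that passed the filter. Of 2-fold changes 65% and 66% were recovered, and of 1.5-fold changes 52% and 59%. Unchanged genes called numbered 7 and 6. As changes were missed, a gene that is not called may still have changed. The recovery was not measured for the members as a set, whose median count in a library was 3218.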

Additional observations from a re-analysis of the deposited data

Results flagged for a closer look

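The response to carfilzomib differed between lines of the same tumour type by the edgeR interaction test for 22 members between RKO and DLD-1, 32 between H-1299 and H-23, 29 between CAPAN-2 and PANC-1, and 29 between H-929 and RPMI. Over all 8 lines it differed for 44 of 44 members. The shares of all genes that differed were 4.04%, 30.8%, 24.9% and 40.5% for these pairs in turn, and 67.7% over all 8 lines. The member with the largest of these differences was MYBL2, for CAPAN-2 against PANC-1 at -1.35, followed by HJURP for H-929 against RPMI at -1.07. The count for RKO and DLD-1 was 7 to 12 with 1 replicate number left out, and that for CAPAN-2 and PANC-1 was 16 to 24. Doses were set line by line, so dose and line cannot be told apart in any of these differences.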

How the results depend on the processing

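Of the 352 values of a member in a line, the call and direction were kept in 347 with the DESeq2 Wald test, 349 with DESeq2 size factors, 341 with no filter, 350 with summed rows, 322 with 1 fit of all lines and 333 with library totals, where CDK1 (-0.0966) and DLGAP5 (-0.0933) in H-1299 changed sign and were called lower. Library totals gave 16 members lower in H-1299 against 7 with TMM, and moved the median of all genes there as given above. Members higher in PANC-1, 1 with the per-line fit, were 0 with the DESeq2 Wald test, 0 with 1 fit of all lines and 0 to 1 without 1 library, the gene being CDKN3. Members higher in H-929 were 1 to 2 without 1 library. Members that differed between RKO and DLD-1 (22) were 7 to 12 without 1 replicate number, and those between CAPAN-2 and PANC-1 (29) were 16 to 24; these fits hold 2 samples a group. With each library left out in turn, 2034 values of a member in a line kept the call, 56 lost it and 22 gained one. Beside the losses given above, calls were lost in 3 of 6 such fits for AURKA and UBE2C in H-929, CCNB2 and FOXM1 in RPMI and CDKN3 in DLD-1, and in 2 for PRC1 in H-929 and CKS2 in DLD-1. They were lost in 1 for ASPM in H-929, AURKA in DLD-1, BUB1B in RPMI, CDC25C in H-23, CDCA3 in RKO, HMMR in H-1299 and KIF23 in CAPAN-2. The replicate numbers were not shown to pair the samples: the lowest and highest correlation of same-numbered deviations in a line were -0.174 and 0.182, and in 3 of 8 lines every sample correlated best with its own number. With the replicate block 346 of 352 calls were kept, with 43 members lower on average and 20 differing between RKO and DLD-1. Depth limited UBE2C in RPMI, with 11 to 26 counts.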

Other observations

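UBE2C stood apart in RPMI. Its mean level in DMSO there was 0.82 CPM, while in the other 7 lines it lay between 58.1 and 239.8 CPM. The genes beside it on the chromosome were read in the same libraries. SNX21 had 4.19 CPM in RPMI and 11.7 to 66.8 CPM elsewhere, and ZSWIM1 had 10.9 CPM and 12.4 to 31.3 CPM elsewhere, both below the range of the other lines. DNTTIP1, with 16.1 CPM against 12.4 to 42.9 CPM, ACOT8, with 21.7 CPM against 10.03 to 29.8 CPM, and ZSWIM3, with 6.95 CPM against 4.51 to 8.09 CPM, lay inside it. The other neighbours read, WFDC10B, WFDC13, SPINT4, WFDC3 and TNNC2, were below 1 CPM in RPMI. They were also low elsewhere, with medians over the other lines from 0.021 CPM (SPINT4) to 0.25 CPM (WFDC3). These genes were chosen as neighbours after the level of UBE2C was seen.

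The 44 log2 fold changes of one line were also set against those of another, as a description over genes that share libraries within a line. The highest Pearson correlation over the 44 members was 0.66, for H-23 and CAPAN-2, and the lowest was -0.35, for RKO and CAPAN-2.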
